A study of Homo sapiens with 3 samples.

Results

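The genes described here are 10 components of the NF-kappaB system: the subunit genes NFKB1, NFKB2, REL, RELA and RELB, the inhibitor genes NFKBIA, NFKBIZ and TNFAIP3, and the targets BIRC3 and TNFAIP2. They were taken by name, and each was read from the probe sets annotated to it. Of the 10 genes, 9 had a probe set, 20 in all among the 54613 probe sets of the array. BIRC3 had none in the annotation used and is not analysed here. The 3 samples were cultures of IMR-90, a line of normal human fetal lung fibroblasts, each collected 24 h after lipid transfection. 1 culture received the Ctrl siRNA, labelled GL3, 1 received the SETD8-1 siRNA and 1 received the SETD8-2 siRNA. Both SETD8 siRNAs were directed against the histone H4 lysine 20 methyltransferase SETD8, now named KMT5A. Each siRNA was measured on 1 array, so replicate error could not be measured and no test was possible. Transient transfection leaves a mixed population of cells, and the signal of a bulk culture cannot tell fewer expressing cells from less RNA per cell.

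NF-kappaB is a family of dimeric transcription factors that are held in the cytoplasm by IkB proteins. Signals from receptors for tumour necrosis factor, interleukin 1 or microbial products activate the IkB kinase, IkB is degraded, and the dimers enter the nucleus. Among the genes they then switch on are those of their own inhibitors, which makes the response brief, together with cytokine and chemokine genes. In fibroblasts the same factors are known to drive much of the inflammatory secretion of senescent cells. The comparison addressed whether the difference in secretory genes between the SETD8 siRNAs was accompanied by a difference in these NF-kappaB genes.

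The bases in front of these genes are shown first, because most of these genes carry, close to their start, the DNA element that the factor itself binds. The NF-kappaB dimer binds the kappaB consensus, which was searched on both strands in the 250 bases before each start site in RefSeq, build GRCh38.p14, with overlapping matches merged. Of the 10 members 9 had such a window, RELB being the one without, and several had more than 1. The 120 bases next to the start are printed 5′ to 3′ on the coding strand, with every match in capitals. For NFKBIZ, whose match lies farther out, the first 120 bases of the window are printed instead. RELA and TNFAIP2 are shown as members without a match.
NFKB1 (chr4:102501239-102501358, plus strand): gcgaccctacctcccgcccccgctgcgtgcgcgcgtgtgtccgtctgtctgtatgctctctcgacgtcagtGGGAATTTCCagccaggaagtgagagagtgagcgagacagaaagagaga
NFKB2 (chr10:102394458-102394577, plus strand): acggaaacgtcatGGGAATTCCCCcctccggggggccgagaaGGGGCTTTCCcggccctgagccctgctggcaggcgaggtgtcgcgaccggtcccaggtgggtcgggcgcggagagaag
REL (chr2:60881454-60881573, plus strand): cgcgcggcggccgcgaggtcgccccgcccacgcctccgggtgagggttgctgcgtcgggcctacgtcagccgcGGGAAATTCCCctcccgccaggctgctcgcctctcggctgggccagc
NFKBIA (chr14:35404750-35404869, minus strand): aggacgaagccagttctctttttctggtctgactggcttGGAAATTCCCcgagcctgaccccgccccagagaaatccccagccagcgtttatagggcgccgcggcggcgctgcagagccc
NFKBIZ (chr3:101827740-101827859, plus strand): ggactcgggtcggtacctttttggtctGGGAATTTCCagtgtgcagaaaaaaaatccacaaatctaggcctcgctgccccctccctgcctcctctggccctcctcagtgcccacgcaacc
TNFAIP3 (chr6:137867139-137867258, plus strand): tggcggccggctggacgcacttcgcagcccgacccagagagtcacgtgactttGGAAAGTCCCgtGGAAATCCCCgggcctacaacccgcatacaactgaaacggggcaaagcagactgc
RELA (chr11:65662917-65663036, minus strand): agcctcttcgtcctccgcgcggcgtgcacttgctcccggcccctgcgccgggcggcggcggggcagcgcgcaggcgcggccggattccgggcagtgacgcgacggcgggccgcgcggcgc
TNFAIP2 (chr14:103123341-103123460, plus strand): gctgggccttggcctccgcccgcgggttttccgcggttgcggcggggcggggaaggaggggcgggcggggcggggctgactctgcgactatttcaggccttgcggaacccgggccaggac

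The NFKB1 match began 49 bases before the start and the REL match 47 bases before it, counted to the match's first printed base. NFKBIA had its match at 81 bases, and TNFAIP3 had a pair at 67 and 55 bases, separated by only a few bases. NFKBIZ had a match at 223 bases in the window shown and another at 239 bases before its other start site. Of the 3 NFKB2 windows 1 had none and the others had 2 matches each, 1 of them being printed above. BIRC3 had 2 matches, and neither RELA window nor the TNFAIP2 window had any. In all, 7 of the 9 members had a match in at least 1 window, where 3498 of 35116 windows of all genes (9.96%) and 3221 of 27305 genes (11.8%) had one. The members include textbook NF-kappaB targets, so this share follows in part from how they were picked. A match is a run of letters and does not show that the factor was bound there in these cells, and the lack of a match in this window says nothing about other positions. TNFAIP2, without a match, had the second widest gap between the SETD8 siRNAs among the members (5.05-fold, brightest probe set). RELA, also without one, was at nearly equal signal. NFKB2, with several, was 1.39-fold apart on its brightest probe set, but another of its probe sets had a log2 difference of 2.46. Whether matches went with the size of the gap was not tested.

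Signals are the deposited MAS5 values, a linear brightness per probe set that cannot be compared between genes. They were floored at 11.7, the 25th percentile of all values, and taken to log2. Each gene was read from its brightest probe set, and genes whose mean log2 value reached the median of all probe sets (a signal of 42.0) were compared, 12307 of 19775. All 9 members passed, and each had a control signal above that filter. A difference of at least 2-fold was the size counted. As a yardstick for the comparisons with the control, the 95th percentile of the absolute log2 difference between the SETD8 arrays was 2.21, 1.72, 1.25 and 1.14 in the quartiles of signal from lowest to highest. It holds array noise together with real differences between the siRNAs. The targeted gene KMT5A had lower signal with both siRNAs on all 4 of its probe sets, at 45.9% to 74.7% of control with SETD8-1 and 62.2% to 86.3% with SETD8-2. On its brightest probe set the log2 differences from control, -1.12 and -0.68, were within the yardstick of 1.72 for its signal.

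On the brightest probe sets, the inhibitor genes had the largest differences between SETD8-1 and the control among the members. With probe sets averaged this held for NFKBIZ and TNFAIP3, while NFKBIA (log2 difference 0.87) was below NFKB1 (1.21). All 3 inhibitor genes were at least 2-fold higher with SETD8-1 than with either other siRNA on the brightest probe sets. With SETD8-2 NFKBIZ was higher than the control, and NFKBIA and TNFAIP3 were below it by less than 2-fold. The subunit genes were higher with SETD8-1 by smaller amounts, and RELA had nearly the same signal with both SETD8 siRNAs. Counted over the 9 members, 5 were at least 2-fold higher with SETD8-1 than in the control and 0 lower, against 5.48% and 7.75% of all genes tested. With SETD8-2, 1 was higher and 1 lower, against 4.46% and 6.65% of all genes.

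TNFAIP3 encodes A20, a ubiquitin-editing enzyme that shuts off signalling upstream of the IkB kinase. Its signal was 508.6 in the control, 2694.2 with SETD8-1 and 349.1 with SETD8-2. Only the SETD8-1 array was high. It lay 5.30-fold above the control and 7.72-fold above SETD8-2, the widest gap between the SETD8 siRNAs among the members. The other TNFAIP3 probe set read 168.4, 910.5 and 156.4 in the same order, and the mean log2 difference of SETD8-1 from control over both probe sets was 2.42 ± 0.02 (SD over 2 probe sets, which share the array). The log2 difference of 2.41 exceeded the yardstick of 1.25 for its signal, and that of SETD8-2 from control, -0.54, did not.

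NFKBIA encodes IkB-alpha, the classic cytoplasmic inhibitor that is degraded and then made again. Its signal was 2092.9 in the control, 5830.1 with SETD8-1 and 1287.3 with SETD8-2, so the siRNAs lay on opposite sides of the control. SETD8-1 was 2.79-fold above the control (log2 difference 1.48, yardstick 1.14) and 4.53-fold above SETD8-2. SETD8-2 was 1.63-fold below the control (log2 difference -0.70), within the yardstick. The second probe set was dim, below the signal filter, at 30.3, 36.5 and 19.6 for control, SETD8-1 and SETD8-2, with the same order of the arrays and a smaller difference from control with SETD8-1. Averaged over both probe sets, the log2 difference of SETD8-1 from control was 0.87, under 2-fold.

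NFKBIZ encodes IkB-zeta, a nuclear member of the IkB family that works with NF-kappaB dimers on a second wave of target genes. Its signal was 779.9 in the control, 10671.4 with SETD8-1 and 2127.5 with SETD8-2. It was the single member at least 2-fold higher with both SETD8 siRNAs, a pattern shown by 1.5% of all genes, at 13.7-fold with SETD8-1 and 2.73-fold with SETD8-2. The other probe set read 213.3, 3326.8 and 566.6. Both log2 differences, 3.77 and 1.45, exceeded the yardstick of 1.14, and SETD8-1 remained 5.02-fold above SETD8-2.

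**Figure D1:**
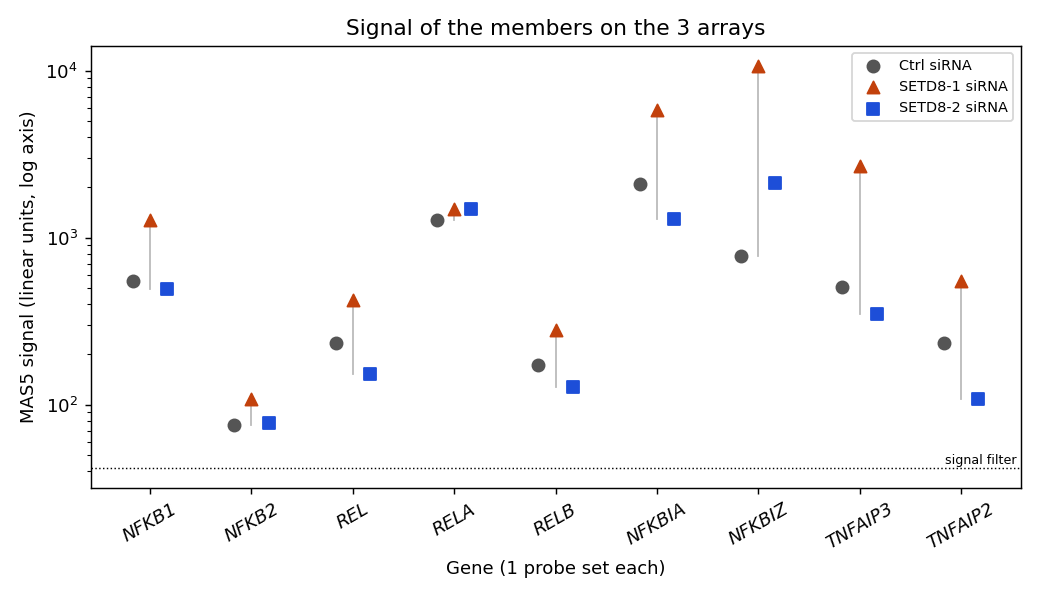
MAS5 signal (log axis) of the 9 members with a probe set on the control (circle), SETD8-1 (triangle) and SETD8-2 (square) arrays, with 1 array per siRNA and therefore no error bars; the vertical lines span lowest to highest and the dotted line marks the signal filter of 42.0. The SETD8-1 triangle is the highest point for every member, by the narrowest margin for RELA (1479.3 against 1477.4).

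Among the subunits, NFKB1, which encodes the p105 precursor of p50, read 552.9 on the control array, 1278.6 with SETD8-1 and 490.3 with SETD8-2. It was the only subunit gene at least 2-fold from the control, 2.31-fold higher with SETD8-1, just under its yardstick (log2 difference 1.21 against 1.25). The control and SETD8-2 arrays differed by 1.13-fold. NFKB1 was read by a single probe set, so no second reading was available.

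REL, which encodes the subunit c-Rel, read 235.0 on the control array, 424.0 with SETD8-1 and 152.1 with SETD8-2. SETD8-1 was 1.80-fold above and SETD8-2 1.55-fold below the control, and the siRNAs lay 2.79-fold apart. Its 5 probe sets all read higher with SETD8-1 than in the control, with a mean log2 difference of 0.80 ± 0.28 (SD over 5 probe sets). With SETD8-2, 4 of the 5 read below the control, with a mean of -0.24 ± 0.32. RELB, the partner of p52 in the noncanonical branch of the pathway, had 173.6 in the control, 279.2 with SETD8-1 and 128.0 with SETD8-2 on its only probe set. The order of its arrays was that of REL, with the siRNAs 2.18-fold apart and neither 2-fold from the control.

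NFKB2, which encodes the p100 precursor of p52, was dim and its probe sets disagreed. The brightest read 75.9, 108.8 and 78.1 for control, SETD8-1 and SETD8-2, which left the siRNAs 1.39-fold apart. Another read 62.4, 120.9 and 22.0, or log2 differences from control of 0.95 and -1.50 and of 2.46 between the siRNAs. The dimmest, at 2.9 in the control, lay below the floor there. All 3 read higher with SETD8-1 than in the control, while the direction with SETD8-2 differed between them (SD 1.19 over 3 probe sets).

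RELA encodes p65, the subunit that carries the activation domain of the common p50-p65 dimer and whose activity is set mainly by its release from IkB. Its signal was 1267.5 in the control, 1479.3 with SETD8-1 and 1477.4 with SETD8-2. Both SETD8 arrays were 1.17-fold above the control, and their log2 difference was 0.00. A second probe set read 128.5, 127.6 and 140.9, again with no array standing apart. RELA was the sole subunit gene for which the SETD8 arrays did not differ on the log2 scale to 2 decimals.

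TNFAIP2, first found as a gene induced by tumour necrosis factor, read 234.3 on the control array, 547.0 with SETD8-1 and 108.3 with SETD8-2. The siRNAs lay on opposite sides of the control, each by more than 2-fold, at 2.33-fold higher and 2.16-fold lower, and 5.05-fold apart. Both log2 differences from control, 1.22 and -1.11, were within the yardstick of 1.72. Its other probe set was below the signal filter, at 21.3, 19.1 and 22.2, and showed no such difference. Averaged over both, the log2 differences were 0.53 and -0.53, under 2-fold on either side.

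**Figure D2:**
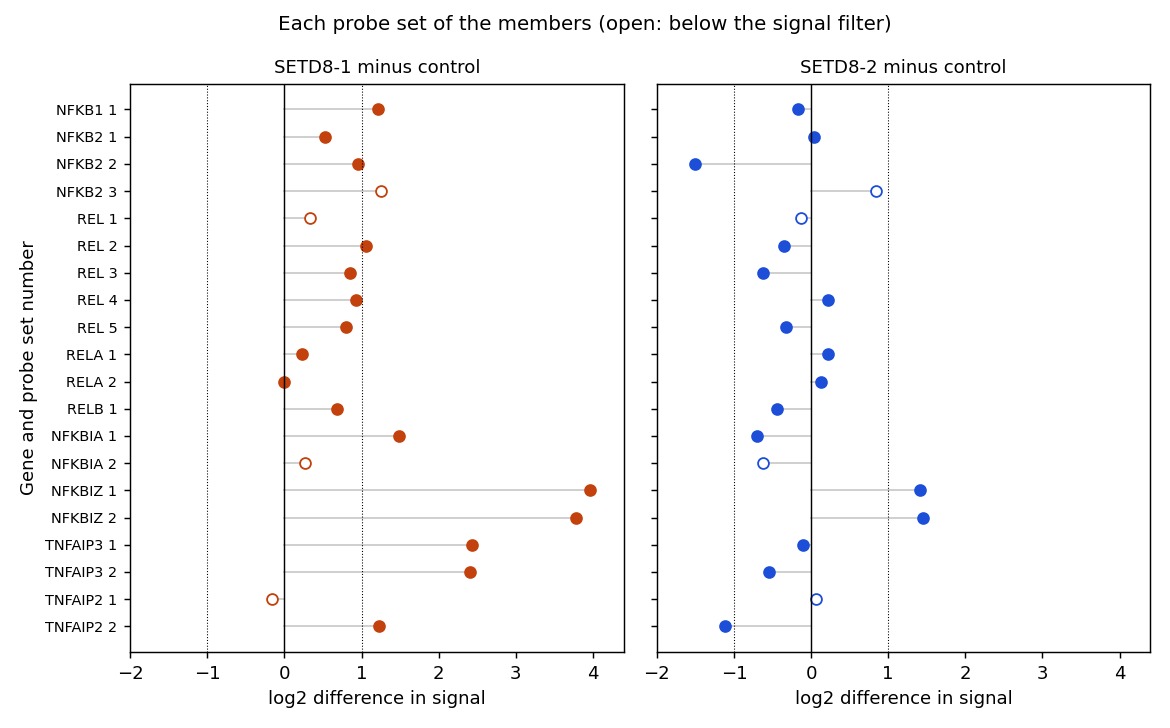
Log2 difference in signal from the control array for each of the 20 probe sets of the members, SETD8-1 on the left and SETD8-2 on the right; filled points passed the signal filter, open points did not, and dotted lines mark 2-fold. With SETD8-1, 18 of 20 points lie above 0 and with SETD8-2 8 of 20, and the NFKBIZ pair is the only one beyond 2-fold above the control on both sides. Of the 12307 genes tested, 5957 lay above 0 with SETD8-1 and 6012 with SETD8-2. The 20 points are repeated readings of 9 genes on the same arrays and not separate units.

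Set directly against each other, SETD8-1 was at least 2-fold above SETD8-2 for 7 of 9 members, all but NFKB2 and RELA, and below it for 0. Among all genes tested, 6.38% were at least 2-fold higher and 6.18% lower in this comparison. With the probe sets of a gene averaged, 8 of 9 members were higher, NFKB2 included (log2 difference 1.12), beside 5.14% of genes. The median log2 difference of the members was 1.48 between the siRNAs, 1.21 between SETD8-1 and control and -0.44 between SETD8-2 and control, beside medians over all genes of 0.00, -0.02 and -0.01. These 3 comparisons share arrays with one another and are not independent. The SETD8-1 array stood at least 2-fold above both others for 5 of the 9 members (NFKB1, NFKBIA, NFKBIZ, TNFAIP3 and TNFAIP2), as it did for 3.12% of all genes. For 6 members SETD8-1 lay above and SETD8-2 below the control at any size, as for 17.2% of all genes. Beyond the yardstick were 3 members with SETD8-1, the inhibitor genes, and 1 with SETD8-2, NFKBIZ, beside 2.58% and 1.46% of all genes. Within their own quartile of signal, the SETD8-1 to SETD8-2 difference was larger in size than that of 99.4% of genes for TNFAIP3, 99.0% for NFKBIZ and 98.8% for NFKBIA, and than that of 0.39% for RELA.

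**Figure D3:**
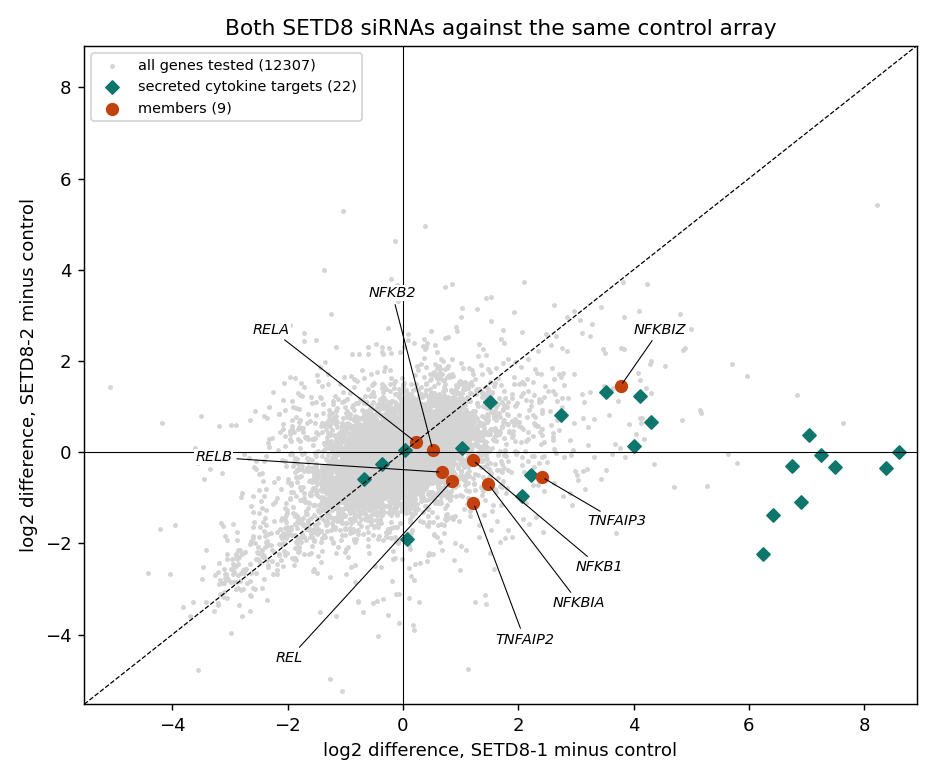
Log2 difference from the control array with SETD8-1 (horizontal) and SETD8-2 (vertical) for the 12307 genes tested (grey), the 22 secreted cytokine targets tested (diamonds) and the 9 members (circles, named); the dashed line marks equal differences. All 9 members lie below or on the line, with RELA on it, and below it lie 19 of the 22 diamonds, the rightmost of which, CCL20, is plotted at a lower bound, since its control and SETD8-2 signals were under the floor.

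IL6, CXCL1 and CXCL8, the secretory genes that the comparison turns on, were also higher with SETD8-1 than with SETD8-2. With SETD8-2 they lay above the control, IL6 and CXCL1 by less than 2-fold, whereas NFKBIA and TNFAIP3 lay below it. IL6, a cytokine of the acute inflammatory response, was 4.31 above the control on the log2 scale with SETD8-1 and 0.66 with SETD8-2. The neutrophil chemokine gene CXCL1 had 7.05 and 0.37, and CXCL8, another of the kind, 4.12 and 1.23. Of 22 secreted cytokine targets tested, SETD8-1 put 18 at least 2-fold above the control and 0 below, with a median of 4.06. SETD8-2 put 3 above (CXCL8, CXCL11 and CX3CL1) and 4 below (CXCL5, IL1A, IL1B and IL32), with a median of -0.16. Over all genes tested, 5.48% lay at least 2-fold above and 7.75% below with SETD8-1, and 4.46% and 6.65% with SETD8-2. Some passed the signal filter through the SETD8-1 array alone. Of the 16 whose control signal reached the filter, a criterion added after seeing the data, 12 reached 2-fold above the control with SETD8-1 and 1, CXCL8, with SETD8-2, beside 4.45% and 3.38% of all genes so filtered. The 4 with the widest gaps on the floored scale were CXCL2, IL1B, IL1A and CCL20, in no settled order, since the SETD8-2 signal of CCL20 was under the floor and those of CXCL2 and IL1A were under the filter's signal of 42.0. IL1B, whose product itself activates NF-kappaB, read 269.4 in the control, 20515.4 with SETD8-1 and 57.6 with SETD8-2. IL1A, the related alarmin, read 89.7, 10735.0 and 41.9, so both interleukin 1 genes placed the siRNAs on opposite sides of the control, as NFKBIA and TNFAIP3 did. CXCL2 read 22.8, 7577.2 and 17.8. CCL20 was below the floor with control and SETD8-2 and at 4561.0 with SETD8-1. With 3 arrays, the higher signal of both inhibitor and secretory genes with SETD8-1 is a description of these arrays, and a link between them was not tested.

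The survival and adhesion targets, some of them secreted like TNFAIP6, were less uniform. Of 27 survival and adhesion targets tested, SETD8-1 put 11 at least 2-fold above the control and 0 below (median 0.72). SETD8-2 put 2 above (C3 and SERPINE2) and 4 below (VCAM1, TNFAIP6, TNFAIP8 and TFPI2), with a median of -0.06. The shares of all genes tested were 5.48% above and 7.75% below with SETD8-1, and 4.46% and 6.65% with SETD8-2. PTGS2, the inducible cyclooxygenase, read 96.5, 19178.0 and 149.9 for control, SETD8-1 and SETD8-2, and BCL2A1, an antiapoptotic gene of the BCL2 family, 57.1, 2209.6 and 34.0. TNFAIP6, a secreted hyaluronan-binding protein, read 729.8, 1964.1 and 83.4, and the protease inhibitor gene TFPI2 8445.0, 25348.5 and 1428.4, so for these 2 genes the larger departure from the control was the decrease with SETD8-2 (log2 differences of -3.13 and -2.56). A kappaB match was present in 13 of 25 genes of this list with a RefSeq window and in 10 of 21 secreted cytokine targets. Among all genes with a window, 3221 of 27305 (11.8%) had one. Both lists had been made of known NF-kappaB targets. In the lists of receptors, adaptors, kinases and other inhibitors the shares were 9.09%, 19%, 25% and 33.3%.

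Among genes upstream of the members, the median gaps between the SETD8 siRNAs were smaller than those of the member subunits and inhibitors. Since members and lists were chosen with earlier results of these data known, the order of the medians is a description and was not tested. Of all genes tested, 5.48% were at least 2-fold higher and 7.75% lower than the control with SETD8-1. With SETD8-2 the shares were 4.46% and 6.65%. Of 10 receptor genes tested, 2 (IL1RAP and IL18R1) reached 2-fold above the control with SETD8-1, while 1 lay above it (IL1RAP) and 2 below (TNFRSF1B and IL18R1) with SETD8-2. IL1RAP, the shared subunit of the interleukin 1 receptor, read 157.2, 752.1 and 458.8, high with both SETD8 siRNAs. IL18R1 had log2 differences from control of 1.56 and -1.16 at low signal, TNFRSF1B -0.36 and -1.20, and IL1R1 0.91 and 0.15. Of 19 adaptor and ubiquitin ligase genes, 3 (IRAK2, IRAK3 and RNF31) were higher with SETD8-1 and 0 lower, and 1 was higher (RNF31) and 1 lower (IRAK3) with SETD8-2. RNF31, a subunit of the linear ubiquitin ligase, had a control signal under the filter and passed through the SETD8 arrays where it was higher. With the filter on the control array alone, 2 genes of this list were higher and 1 lower with SETD8-1, and 0 higher and 1 lower with SETD8-2. The kinase gene IRAK2, which relays interleukin 1 signals, read 999.4, 3597.6 and 1378.3, beyond the yardstick with SETD8-1 (log2 difference 1.85 against 1.25). IRAK3, an inhibitory member of the same family, read 75, 232.5 and 26.2. Its siRNAs lay on opposite sides of the control, at log2 differences of 1.63 and -1.52, both within the yardstick of 2.21 for its low signal. The Toll-like receptor adaptor TICAM1 (-0.93 and 0.21) and the ubiquitin ligase gene TRAF6 (-0.31 and 0.56) ran the other way.

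Of 9 kinase genes and their partners, SETD8-1 put 1 at least 2-fold above and 1 below the control, and SETD8-2 put 0 either way. The shares of all genes tested were 5.48% above and 7.75% below with SETD8-1, and 4.46% and 6.65% with SETD8-2. The higher gene was MAP3K8, the kinase that p105 holds inactive, at 27.8 in the control, 800.3 with SETD8-1 and 45.2 with SETD8-2, so it passed the signal filter through the SETD8-1 array alone. The lower was MAP3K14, the kinase of the noncanonical branch, at 87.1, 26 and 70.5. Its log2 difference with SETD8-1, -1.74, was within the yardstick of 2.21. TANK and TBK1 had log2 differences of 0.96 and 0.51 with SETD8-1 and of -0.34 and 0.05 with SETD8-2. Of 15 other IkB and inhibitor genes, 2 (NFKBIE and TNIP1) reached 2-fold above the control with SETD8-1 and 0 fell below it by that size, and 0 did so either way with SETD8-2. NFKBIE, which encodes IkB-epsilon, read 526.7, 1159.6 and 364.1, the order of the arrays for NFKBIA. Its log2 difference with SETD8-1, 1.14, was within the yardstick of 1.72. TNIP1, a partner of A20, read 1979.7, 5970.4 and 3724.9, beyond the yardstick with SETD8-1 (1.59 against 1.14). OTULIN (-0.02 and -0.54) and N4BP1 (0.28 and -0.19) were closer to the control. The medians of SETD8-1 minus SETD8-2 were 0.38 for receptors, 0.08 for adaptors, 0.09 for kinases and 0.24 for other inhibitors, beside 1.13 for the member subunits and 2.33 for the member inhibitors.

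**Figure D4:**
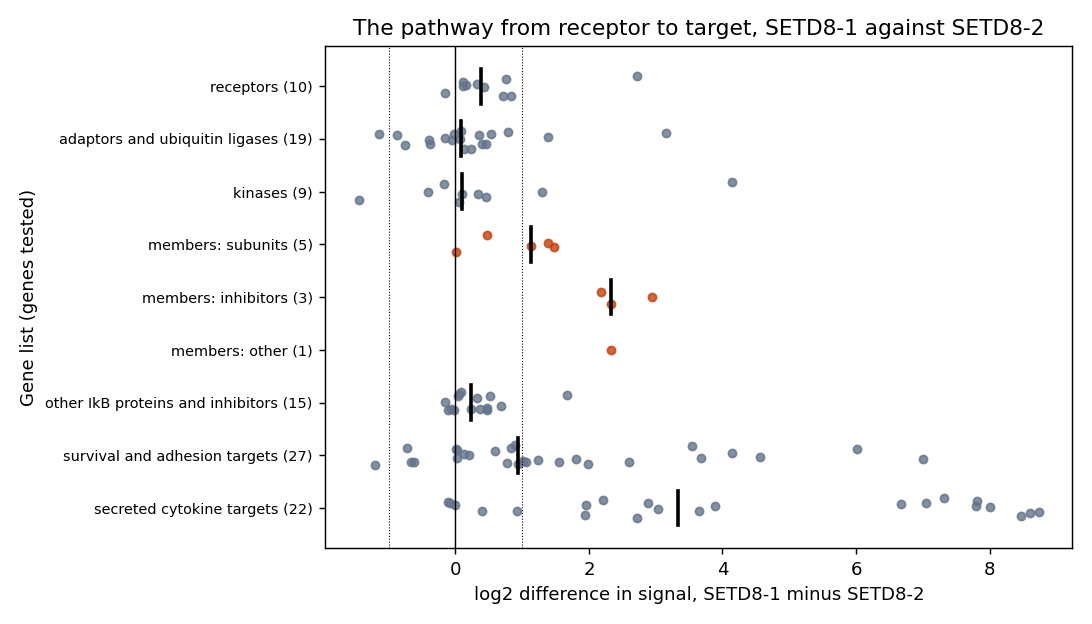
Log2 difference in signal between the SETD8-1 and SETD8-2 arrays for each gene tested (points), by step of the NF-kappaB pathway, with the list median as a black bar where there is more than 1 gene and dotted lines at 2-fold; vertical scatter within a list is arbitrary. Medians are 0.38, 0.08 and 0.09 for receptors, adaptors and kinases, 2.33 for the member inhibitors and 3.34 for the secreted cytokine targets. The lists were chosen with earlier results of these data known, and the order of their medians was not tested.

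The genes whose 2 differences from the control lay nearest to those of TNFAIP3, the member with the widest gap, were NAMPT, MUC12 and TNFSF10, at distances of 0.03, 0.19 and 0.19 on the log2 scale over 3 arrays. NAMPT, an enzyme of NAD synthesis, read 1747.8, 9256.7 and 1228.1. MUC12 and TNFSF10 were dim, with control signals of 30 and 31.2 and SETD8-2 signals of 18.2 and 22.1, all under the filter's signal. They passed the filter through the SETD8-1 array alone, at 152.6 and 145.1, so their inclusion rested on the array where they were high. TNFSF10 was also on the list of secreted cytokine targets.

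Marker genes of fibroblasts were well measured on every array: all 11 passed the filter, and their summed signal ran from 156907 to 174576. Within the list, DCN, which encodes the matrix proteoglycan decorin, was at a log2 difference of -1.37 from the control with SETD8-1, and S100A4 was at 1.68 with SETD8-2, both beyond the yardstick. DCN and LUM were also at least 2-fold lower with SETD8-1 than with SETD8-2, at log2 differences of -1.57 and -1.15. Of 7 leukocyte markers with a probe set 2 passed the filter. The summed signal of all 7 was 174.8 in the control, 227.9 with SETD8-1 and 249.0 with SETD8-2. PTPRC, LYZ and TYROBP were under the filter's signal on every array. CD14 read 1.8, 13.1 and 52.4 and CD3E 20, 55.1 and 37.2 for control, SETD8-1 and SETD8-2. Of 9 epithelial markers 3 passed, and all 9 together summed to 394.1 to 503.4. Of 8 endothelial markers 3 passed. The sum over all 8 was 1394.1, 1587.7 and 2198.3 for control, SETD8-1 and SETD8-2, mostly from TEK, and the defining markers CDH5, TIE1 and ESAM were at the floor on all arrays. PECAM1 and VWF, at 49.0 and 59.7 in the control, were at 135.0 and 130.5 with SETD8-1. The part of these marker genes in the difference between the siRNAs was not tested.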

How the data were processed

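RNA from 3 IMR-90 cultures (250 ng each, per the labels' protocols) was measured on 1-colour Affymetrix arrays. Per the submitters' processing notes, the deposited linear intensity values, 1 per probe set, come from MAS5. Its version and settings are not given in the sources read. The mean without the extreme 2% at either end was 497 on each array, so arrays were not rescaled, and a shift of all genes would be hidden. Detection calls were not used. Names came from GEO's annotation of the platform, brought to RefSeq symbols through gene numbers (41037 of 41091 matched). The 1801 probe sets with several genes were left out and 11721 stay unnamed. Promoter windows are RefSeq's, GRCh38.p14. With 1 array per siRNA no p-value was computed, and the number of arrays limits the precision. The members and lists were chosen with earlier results of these data known. Genes named were the members, KMT5A, IL6, CXCL8 and CXCL1, up to 4 per list with the widest gap between the SETD8 siRNAs, and the 3 nearest to TNFAIP3. CXCL11, CX3CL1, CXCL5, IL32, C3, SERPINE2, VCAM1, TNFAIP8, RNF31, JUNB, IRF7, CEBPA, FOS, FOSB and the cell type markers were named after their values were seen. The gene table and the 2-fold count were tested on simulated data. Alternatives covered scaling, floor, filter, probe set choice and threshold. The software was Python 3.11.15 with numpy 2.4.6 and pandas 2.3.3, and figures were drawn in matplotlib 3.10.9.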

Additional observations from a re-analysis of the deposited data

Results flagged for a closer look

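For 6 members the SETD8-1 array lay above the control and the SETD8-2 array below it. The log2 difference between the SETD8 siRNAs was 2.95 for TNFAIP3, 2.34 for TNFAIP2, 2.18 for NFKBIA, 1.48 for REL, 1.38 for NFKB1 and 1.13 for RELB. The difference between the siRNAs was not tested, since each had 1 array, and 17.2% of all genes showed the same signs. For NFKB1 the SETD8-2 side was small, at a log2 difference of -0.17 from the control.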

How the results depend on the processing

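Each value is from 1 array per siRNA, so no setting measures replicate error, and no left-out replicate could be run. Of the 5 members at least 2-fold higher with SETD8-1 than control, 3 were counted with probe sets averaged, 1 of 4 measured without shared probe sets (those with a letter before _at), which removes every bright probe set of the inhibitor genes, and 2 at 3-fold. The 1 higher with SETD8-2 became 0 without shared probe sets and at 3-fold. The 1 lower became 0 with the filter at the 75th percentile, with probe sets averaged and at 3-fold, and 3 at 1.5-fold. The 7 higher with SETD8-1 than SETD8-2 became 4 of 5 with the filter at the 75th percentile, 4 of 4 without shared probe sets, and 4 of 9 at 3-fold. That filter moved the median between the siRNAs from 1.48 to 2.18. KMT5A had -0.64 and -0.39 with probe sets averaged and -0.48 and -0.44 without shared probe sets. The cause of these shifts beyond the genes or probe sets left out was not tested. Over the 10 alternatives, 79 of the other values of counts, medians and KMT5A stayed within the spread over probe sets or 1.5 times the count, and no member at least 2-fold apart turned its direction. No paired analysis was possible because each siRNA had 1 array.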

Other observations

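Among 14 other stress and inflammatory transcription factor genes tested, SETD8-1 put 3 at least 2-fold above the control (JUNB, ATF3 and IRF7) and 1 below (FOSL1). SETD8-2 put 0 above and 2 below (CEBPD and IRF2). The shares of all genes tested were 5.48% above and 7.75% below with SETD8-1, and 4.46% and 6.65% with SETD8-2. CEBPD, a factor of the C/EBP family that is induced in the acute phase response, read 2399.8 in the control, 3481.9 with SETD8-1 and 676.6 with SETD8-2, so its departure lay mainly on the SETD8-2 side. ATF3, a stress-induced repressor, read 566.2, 2482.1 and 665.9, high on the SETD8-1 array. IRF2 read 250.6, 279.3 and 117.3. FOSL1, an AP-1 subunit gene, ran the other way, at 680.3, 311.5 and 695.0. CEBPA, FOS and FOSB of the same list fell below the signal filter and were not counted. FOS read 13.1, 214.6 and 11.3, FOSB 5.8, 106.2 and 57.8, and CEBPA 11, 32.5 and 8.1. The list median of SETD8-1 minus SETD8-2 was 0.48, beside 1.48 for the NF-kappaB members and 1.13 for the member subunits alone. The 0.48 leaves out FOS, FOSB and CEBPA, each of which read highest with SETD8-1.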
